A study of Mus musculus with 9 samples.

Results

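The 9 genes described here encode matrix metalloproteinases and the proteins that inhibit them: the membrane-anchored proteinases Mmp14 and Mmp15, the secreted proteinases Mmp2, Mmp3, Mmp9 and Mmp19, and the tissue inhibitors Timp1, Timp2 and Timp3. They were selected by symbol, with no threshold on a measured value, and are 9 of the 54532 genes of the count table. RNA was sequenced from HC11, a cell line of mouse mammary epithelium that the labels assign to strain C57BL/6, grown in serum-containing medium. EpPT2 and EpPT1, with 3 libraries each, were exposed to light of 660 nm, and Ctrl, with 3 libraries, was untreated. The sample labels give 20 J/cm2 for EpPT2 and 10 J/cm2 for EpPT1. The treatment protocol, in contrast, describes a 10 mW laser and doses of 0.5 and 1 J/cm2. The groups are therefore called by name and not by dose. No genetic change is labelled, no time between exposure and lysis is stated, and all libraries come from the same line. Whether the 3 libraries of a group are separate cultures is not stated, so p values rest on a spread among libraries that could be technical.

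Matrix metalloproteinases are zinc enzymes made as inactive proenzymes, and they cut collagens, laminins, growth factor carriers and each other. Tissue inhibitors of metalloproteinases occupy the active site and so set how much of the proteinase can act. In the mammary gland this balance is known for its part in branching of the ducts and in the remodelling of the gland after weaning. Mmp14, held at the cell surface, activates the Mmp2 proenzyme in a complex in which Timp2 serves as the bridge, so that Timp2 is both inhibitor and adaptor.

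Promoters of 4 of the genes are shown because they stand for the distinct patterns found below: Mmp3 had the largest fitted difference, Mmp14 was the most abundant proteinase of the set, and Mmp15 and Timp1 were the tested genes, after Mmp3, with the widest range across the 9 libraries. Each window holds 250 bases before and 50 bases after the start of the gene as annotated by RefSeq on GRCm38.p6, on the gene's strand. Capitals mark matches, on either strand, to the AP-1 element (TGANTCA), the TATA box (TATAAA) and the GC box (GGGCGG), and overlapping matches run together.
Mmp3 (chr9:7445572-7445871, + strand): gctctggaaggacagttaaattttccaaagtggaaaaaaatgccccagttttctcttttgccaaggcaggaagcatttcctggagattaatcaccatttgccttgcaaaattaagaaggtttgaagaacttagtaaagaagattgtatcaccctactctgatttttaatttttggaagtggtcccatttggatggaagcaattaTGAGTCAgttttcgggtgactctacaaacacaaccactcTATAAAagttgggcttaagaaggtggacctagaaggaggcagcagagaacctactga
Mmp14 (chr14:54431348-54431647, + strand): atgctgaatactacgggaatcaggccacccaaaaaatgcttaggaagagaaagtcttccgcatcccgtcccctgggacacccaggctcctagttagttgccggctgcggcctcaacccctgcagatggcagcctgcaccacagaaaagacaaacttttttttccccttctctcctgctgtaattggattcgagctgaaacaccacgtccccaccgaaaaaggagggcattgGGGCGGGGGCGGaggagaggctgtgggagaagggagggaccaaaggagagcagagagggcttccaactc
Mmp15 (chr8:95352046-95352345, + strand): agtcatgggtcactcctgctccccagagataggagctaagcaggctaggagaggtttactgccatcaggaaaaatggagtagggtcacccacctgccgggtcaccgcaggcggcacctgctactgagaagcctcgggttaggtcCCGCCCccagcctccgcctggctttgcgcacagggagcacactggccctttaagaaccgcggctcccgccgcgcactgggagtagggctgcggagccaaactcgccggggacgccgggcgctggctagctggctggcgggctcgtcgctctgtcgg
Timp1 (chrX:20869916-20870215, + strand): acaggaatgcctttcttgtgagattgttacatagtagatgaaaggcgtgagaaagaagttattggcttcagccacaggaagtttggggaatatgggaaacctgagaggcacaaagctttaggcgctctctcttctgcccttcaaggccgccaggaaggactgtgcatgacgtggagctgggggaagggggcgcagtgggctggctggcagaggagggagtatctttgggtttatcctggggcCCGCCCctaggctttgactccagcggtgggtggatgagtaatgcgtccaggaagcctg
The Mmp3 window held 1 AP-1 element and 1 TATA box and no GC box. The other 3 windows held GC boxes, 2 in Mmp14 and 1 each in Mmp15 and Timp1, and neither of the other motifs. Over all 32851 windows in the table, 7.81% held the AP-1 element, 13.6% the TATA box and 35.7% the GC box. The Mmp3 window was the poorest in G and C of the 6 that were found for these genes, at 40.0%, and those of Timp2 and Timp3, at 68.7% and 67.0%, were the richest. These matches describe letters in a window and were not tested for binding. Windows for Timp2 and Timp3 are not printed, and Mmp2, Mmp9 and Mmp19 were not matched.

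Library totals lay between 14549787 and 17228929 counts. Of 28724 genes with a count, 14471 were abundant enough to test, and the biological coefficient of variation was 39.3%. A total of 4 libraries (EpPT2 2, EpPT2 3, EpPT1 3 and Ctrl 3) carried 6.06% to 7.48% mitochondrial counts, and the other 5 had 2.74% to 3.62%. The sets lie apart on the first principal component and cut across the groups, so values are also given within each of these sets. Libraries also differed in how expression varied with the GC content of genes. The slope of log2 CPM per 10 percentage points of GC was 0.086 to 0.19 in EpPT2, −0.50, 0.078 and 0.27 in EpPT1, and −0.64 to −0.36 in Ctrl.

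Among the 9 genes, inhibitor transcripts outweighed proteinase transcripts in every library. On a scale of CPM (counts divided by the TMM-scaled library total) per kilobase of exon, which allows levels of different genes to be compared, Timp2 averaged 124 over the 9 libraries and was the highest of the 9 genes in each of them. Timp1 followed at 43.0, Mmp14 at 30.5, Timp3 at 4.87 and Mmp15 at 1.06. Mmp3 (0.36), Mmp19 (0.35), Mmp2 (0.099) and Mmp9 (0.049) were far below, with 92, 175, 45 and 24 counts in all 9 libraries together. Timp2 lay above Timp1, Mmp14 above Timp3, and Timp3 above Mmp15 without overlap of their ranges. Timp1 exceeded Mmp14 in 7 of 9 libraries, Mmp3 exceeded Mmp19 in 5 and Mmp2 exceeded Mmp9 in 6, and the ranges within each of these pairs overlapped. Of the 9 genes, 7 passed the filter on low counts and were tested. Mmp2 and Mmp9 did not, and Mmp3 passed through its exposed libraries, since no Ctrl library reached more than 5 counts.

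**Figure D1:**
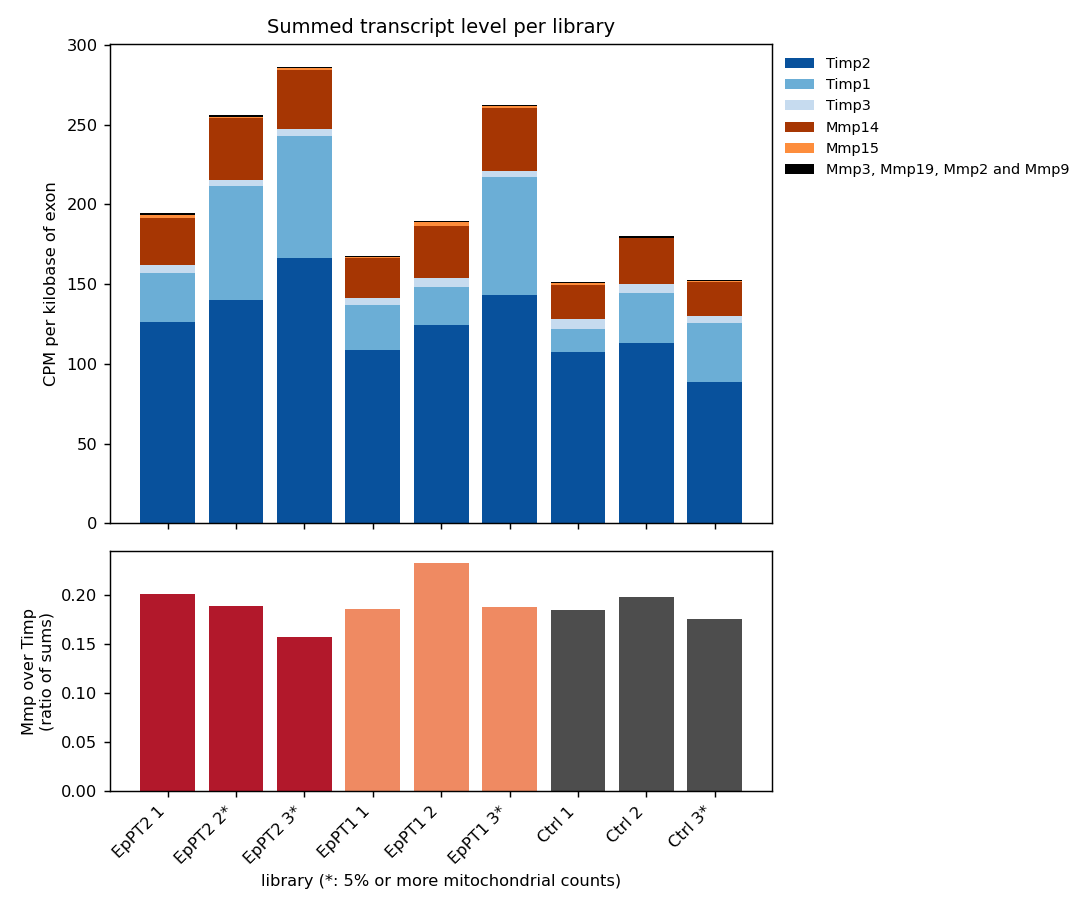
Summed transcript levels of the 9 genes in each library (upper bars, CPM per kilobase of exon, stacked by gene) and the ratio of the summed proteinase to the summed inhibitor levels (lower bars, no unit). Timp2 forms the largest part of every bar, and the ratio lies between 0.157 and 0.233 in the 9 libraries.

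The ratio of the summed levels of the 6 proteinases to those of the 3 inhibitors did not separate the groups. It was 0.200, 0.188 and 0.157 in EpPT2, 0.185, 0.233 and 0.188 in EpPT1, and 0.185, 0.197 and 0.175 in Ctrl. The group means were 0.182 ± 0.023 in EpPT2, 0.202 ± 0.027 in EpPT1 and 0.186 ± 0.011 in Ctrl (SD, n = 3 each), and the ranges overlapped. The ratio rests on 2 genes. Mmp14 made up 89.2% to 96.0% of the proteinase sum and Timp2 made up 64.8% to 84.1% of the inhibitor sum. The proteinase sum leaves out Mmp24, Mmp28, Mmp10, Mmp11 and Mmp13, which averaged 17.5, 10.3, 4.83, 4.22 and 2.58 CPM per kilobase. The ratio and these shares therefore describe the 9 genes and not all metalloproteinases of the cells. As the members were chosen with results known, the ratio is described without a test.

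Mmp14 and Timp2, the surface proteinase and the inhibitor that bridges it to Mmp2, both lay above Ctrl in every EpPT2 library. Mmp14 (ENSMUSG00000000957, GRCm38 chromosome 14, 54431612 to 54445364) had 173, 232 and 220 CPM in EpPT2, 150, 195 and 237 CPM in EpPT1, and 130, 170 and 128 CPM in Ctrl. All 3 EpPT2 libraries lay above all 3 Ctrl libraries and EpPT1 1 lay within the Ctrl range. Timp2 (ENSMUSG00000017466, chromosome 11, 118301069 to 118355740) had 492, 546 and 648 CPM in EpPT2, 423, 485 and 558 CPM in EpPT1, and 419, 440 and 346 CPM in Ctrl. Here too every EpPT2 library exceeded every Ctrl library, and EpPT1 1 lay among the Ctrl libraries. In EpPT2 against Ctrl the fitted fold was 1.46 for Mmp14 (2 SE interval 1.05 to 2.02) and 1.40 for Timp2 (1.05 to 1.87). Neither passed edgeR's quasi-likelihood test, with adjusted p values of 0.400 and 0.398 over all genes. In EpPT1 against Ctrl the folds were 1.36 (0.979 to 1.89) and 1.22 (0.911 to 1.63), with an adjusted p of 0.991 in edgeR for both.

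Since every EpPT2 library exceeded every Ctrl library for this pair, the order within a mitochondrial set is given in advance, and only the size of the gap is informative there. Among the 5 libraries with the lower share, Mmp14 was 173 CPM in EpPT2 1, against 130 and 170 CPM in Ctrl 1 and Ctrl 2. Among the 4 with the higher share, it was 232 and 220 CPM in EpPT2 2 and EpPT2 3, against 128 CPM in Ctrl 3. Timp2 was 492 CPM in EpPT2 1, against 419 and 440 CPM in Ctrl 1 and Ctrl 2, and 546 and 648 CPM in EpPT2 2 and EpPT2 3, against 346 CPM in Ctrl 3. In a fit of the 5 libraries of the lower set alone, the log2 difference of EpPT2 from Ctrl was 0.22 (SE 0.36) for Mmp14 and 0.21 (SE 0.33) for Timp2, against 0.54 and 0.48 with all libraries. The exons of Mmp14 hold 56.9% GC and those of Timp2 54.0%. When the dependence of expression on GC was taken out library by library, the log2 difference of EpPT2 from Ctrl was −0.051 for Mmp14 and 0.15 for Timp2, in place of 0.54 and 0.48. The ratio of Mmp14 to Timp2 per kilobase, which does not depend on library scaling, was 0.243 ± 0.030 in EpPT2, 0.257 ± 0.023 in EpPT1 and 0.232 ± 0.026 in Ctrl (SD, n = 3 each), and these ranges overlapped.

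**Figure D2:**
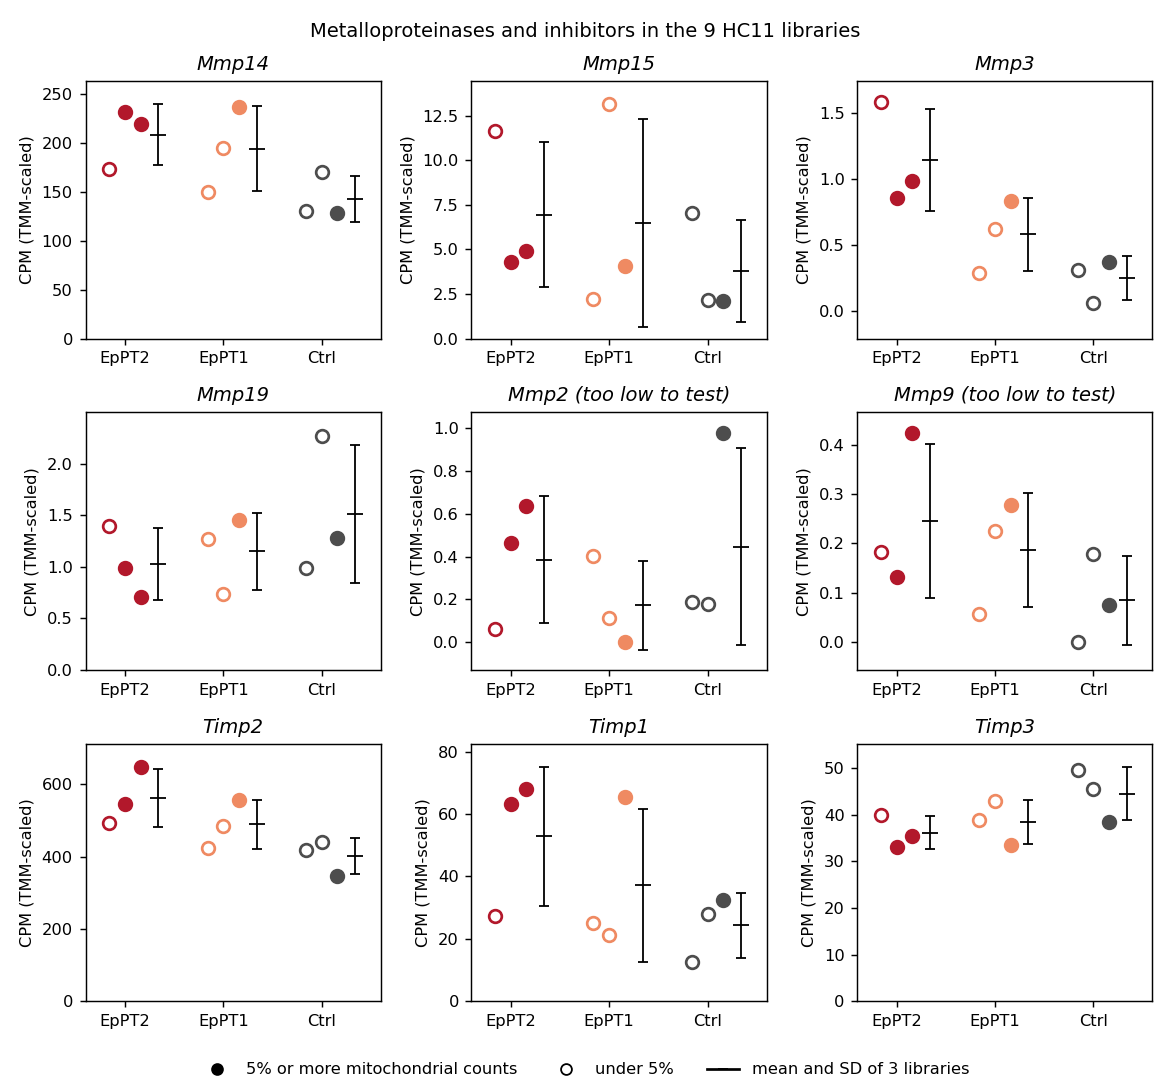
CPM (TMM-scaled) of each gene in every library, by group, with filled points for libraries with at least 5% mitochondrial counts, open points for the rest, and the mean and SD of 3 libraries beside them. For Mmp3, Mmp14 and Timp2 all EpPT2 points lie above all Ctrl points, and the filled points of Timp1 lie above the open ones.

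Among the secreted proteinases, Mmp3 showed the largest difference of the set, at a very low level. Mmp3 (ENSMUSG00000043613, chromosome 9, 7445822 to 7455975) encodes stromelysin-1, which degrades several matrix proteins and activates other metalloproteinase precursors. It had 26, 13 and 14 counts in EpPT2, 5, 11 and 12 counts in EpPT1, and 5, 1 and 5 counts in Ctrl. Every EpPT2 library was above every EpPT1 and every Ctrl library, and EpPT1 overlapped with Ctrl. The means were 1.14 ± 0.387 CPM in EpPT2, 0.580 ± 0.274 CPM in EpPT1 and 0.248 ± 0.166 CPM in Ctrl (SD, n = 3 each). The fitted fold in EpPT2 against Ctrl was 4.57 (2 SE interval 1.66 to 12.6), with an adjusted p of 0.376 in edgeR. Mmp3 reached the test only through its exposed libraries, so this fold is a description and its p supports no difference. The fold was 2.32 (0.836 to 6.45) in EpPT1 against Ctrl and 1.97 (0.771 to 5.03) in EpPT2 against EpPT1, with adjusted p values of 0.991 and 1.00 in edgeR. Ctrl 2 had 1 count, and without it the log2 difference of EpPT2 from Ctrl was 1.72, against 2.19 with it. Mmp3 has 45.9% GC, and the same log2 difference was 2.42 after the GC trend was removed. Since every EpPT2 library exceeded every Ctrl library for Mmp3 too, its order within a mitochondrial set is given in advance. Within the lower set Mmp3 was 1.58 CPM in EpPT2 1, against 0.310 and 0.060 CPM in Ctrl 1 and Ctrl 2. Within the higher set it was 0.856 and 0.987 CPM in EpPT2 2 and EpPT2 3, against 0.375 CPM in Ctrl 3. In a fit of the 5 libraries of the lower set alone, the log2 difference of EpPT2 from Ctrl was 3.07 (SE 1.21). That fit holds a single EpPT2 library and is a description as well.

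The gelatinases Mmp2 and Mmp9, which cut denatured collagen and the basement membrane collagen type IV, were close to the limit of detection. Mmp2 (ENSMUSG00000031740, chromosome 8, 92827291 to 92853420) had 1, 7 and 9 counts in EpPT2, 7, 2 and 0 counts in EpPT1, and 3, 3 and 13 counts in Ctrl. Mmp9 (ENSMUSG00000017737, chromosome 2, 164940780 to 164955850) had 3, 2 and 6 counts in EpPT2, 1, 4 and 4 counts in EpPT1, and 0, 3 and 1 counts in Ctrl. A count of 0 allows up to 3 counts, or 0.170 to 0.225 CPM depending on the library, and covers counting error only. The 3 groups overlapped for both genes, and a difference was not detectable at this depth. When the filter on low counts was dropped, edgeR gave Mmp9 a log2 difference of 1.44 (SE 1.36) and Mmp2 one of −0.18 (SE 1.03) in EpPT2 against Ctrl. The adjusted p was 0.741 for Mmp9 and 1.00 for Mmp2. In the same fit, EpPT1 against Ctrl gave 1.05 (SE 1.37) for Mmp9 and −1.26 (SE 1.07) for Mmp2. The Mmp2 precursor's activators Mmp14 and Timp2 were read far more often than Mmp2 itself, whose level per kilobase was 0.114 in EpPT2, 0.051 in EpPT1 and 0.132 in Ctrl.

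Mmp15 varied more between libraries of a group than between groups. Mmp15 (ENSMUSG00000031790, chromosome 8, 95352268 to 95375080) encodes a second membrane-type metalloproteinase, related to Mmp14. It had 11.6, 4.28 and 4.93 CPM in EpPT2, 2.25, 13.1 and 4.08 CPM in EpPT1, and 7.06, 2.15 and 2.10 CPM in Ctrl. A single library in each group, EpPT2 1, EpPT1 2 and Ctrl 1, lay well above the other 2, and these 3 are all in the set with the lower mitochondrial share. The fold was 1.84 (2 SE interval 0.672 to 5.03) in EpPT2 against Ctrl and 1.72 (0.628 to 4.69) in EpPT1 against Ctrl, with edgeR adjusted p values of 0.602 and 0.991. Without EpPT1 2 the log2 difference of EpPT1 from Ctrl was −0.26, against 0.78 with it. Without Ctrl 1, the differences of EpPT2 and EpPT1 from Ctrl were 1.71 and 1.61. With 59.4% GC, Mmp15 was the gene of the set richest in GC, and its log2 difference of EpPT2 from Ctrl was −0.011 once the GC trend was removed.

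Mmp19, a secreted proteinase that cleaves basement membrane components, was the only tested proteinase of the set whose fitted difference against Ctrl lay below 0 in both exposed groups. Mmp19 (ENSMUSG00000025355, chromosome 10, 128790910 to 128800824) had 23, 15 and 10 counts in EpPT2, 22, 13 and 21 counts in EpPT1, and 16, 38 and 17 counts in Ctrl. The groups overlapped, and Ctrl 2 was the highest library. The folds were 0.684 (0.326 to 1.43) in EpPT2 against Ctrl and 0.760 (0.364 to 1.59) in EpPT1 against Ctrl, with edgeR adjusted p values of 0.661 and 0.991. Without Ctrl 2 the log2 difference of EpPT1 from Ctrl was 0.02. Its exons share 789 bases with Tmem198b on the opposite strand, a gene with up to 139 counts in a library. Since no source states whether counting used strand, the Mmp19 values are uncertain.

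Timp1, the inhibitor that is often induced by growth factors and that blocks Mmp14 poorly, was higher in the set with the higher mitochondrial share. It did not follow the share within that set, where Ctrl 3 had the highest share (7.48%) and the lowest Timp1. Timp1 (ENSMUSG00000001131, chromosome X, 20870166 to 20874735) had 27.4, 63.2 and 68.1 CPM in EpPT2, 25.0, 21.1 and 65.4 CPM in EpPT1, and 12.6, 28.1 and 32.5 CPM in Ctrl. The 4 libraries with the higher share had 32.5 to 68.1 CPM and the other 5 had 12.6 to 28.1 CPM, with no overlap. Within the higher set, EpPT2 2, EpPT2 3 and EpPT1 3 had 63.2 to 68.1 CPM, against 32.5 CPM in Ctrl 3. Within the lower set, EpPT2 1 had 27.4 CPM and EpPT1 1 and EpPT1 2 had 25.0 and 21.1 CPM, against 12.6 and 28.1 CPM in Ctrl 1 and Ctrl 2. The fold in EpPT2 against Ctrl was 2.17 (2 SE interval 1.05 to 4.47), with an unadjusted p of 0.057 and an adjusted p of 0.414 in edgeR. In EpPT1 against Ctrl it was 1.52 (0.744 to 3.12), with an adjusted p of 0.991 in edgeR, and without EpPT1 3 the log2 difference was −0.079, against 0.61 with it. With the mitochondrial share as a covariate, the log2 difference of EpPT2 from Ctrl was 0.80 (SE 0.27), against 1.12 (SE 0.52) without it, and its edgeR adjusted p was 0.119, where the lowest over all alternatives was 0.075. In a fit of the 5 libraries of the lower set alone, it was 0.44 (SE 0.50). The sums of the macrophage and blood cell markers and of the basal markers parted the same libraries without overlap. Of all tested genes, 16.5% lay higher in those 4 libraries without overlap and 18% lay lower. The luminal, fibroblast, endothelial and fat cell sums overlapped between the sets. The macrophage and blood cell markers summed to 112 to 127 CPM in the 4 libraries and to 25.1 to 65.9 CPM in the other 5. Cd68 led this sum with 8.49 to 102 CPM over the 9 libraries, and the next, Cd14, had 7.20 to 12.8 CPM. The basal markers summed to 19.4 to 23.5 CPM in the 4 and to 4.71 to 9.79 CPM in the 5. Krt14 led the basal sum with 3.59 to 20.4 CPM over the 9 libraries, and Krt5 had 0.339 to 3.03 CPM. Trp63 and Acta2 had 36 and 11 counts in all libraries together, so the basal sum is mostly 1 keratin gene. The part of these markers in the Timp1 values was not tested.

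Timp3, the inhibitor that binds to the matrix and also blocks the sheddase Adam17, ran the other way. Timp3 (ENSMUSG00000020044, chromosome 10, 86300372 to 86349506) had 40.0, 33.0 and 35.4 CPM in EpPT2, 38.7, 42.9 and 33.4 CPM in EpPT1, and 49.6, 45.6 and 38.3 CPM in Ctrl. The groups overlapped because Ctrl 3 lay below EpPT2 1. The 4 libraries with the higher mitochondrial share had 33.0 to 38.3 CPM and the other 5 had 38.7 to 49.6 CPM. Within the higher set, Ctrl 3 was above all 3 exposed libraries, and within the lower set Ctrl 1 and Ctrl 2 were above all 3 exposed ones. How many of all genes show such an order was not counted, so it is a description only. Timp3 has 47.3% GC. After the GC trend was removed, its log2 difference from Ctrl was −0.16 in EpPT2, in place of −0.30. In EpPT1 it was −0.12, in place of −0.21. The fold was 0.812 (2 SE interval 0.608 to 1.09) in EpPT2 against Ctrl and 0.862 (0.645 to 1.15) in EpPT1 against Ctrl, with edgeR adjusted p values of 0.541 and 0.991. Exons of Timp3 share 1733 bases with Syn3 on the opposite strand, which had at most 39 counts in a library.

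Timp1 and Timp3 were the 2 tested genes of the set whose 4 libraries with the higher mitochondrial share did not overlap with the other 5, in opposite directions. Of all tested genes, 16.5% lay higher in those 4 libraries without overlap and 18% lay lower, so such a separation was common in these data. The inhibitor pool shifted with it. Timp1 made up 28.1% to 33.3% of the inhibitor sum per kilobase in the 4 libraries and 11.1% to 21.0% in the other 5, and Timp3 made up 1.76% to 3.62% in the 4 and 3.03% to 4.76% in the 5.

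**Figure D3:**
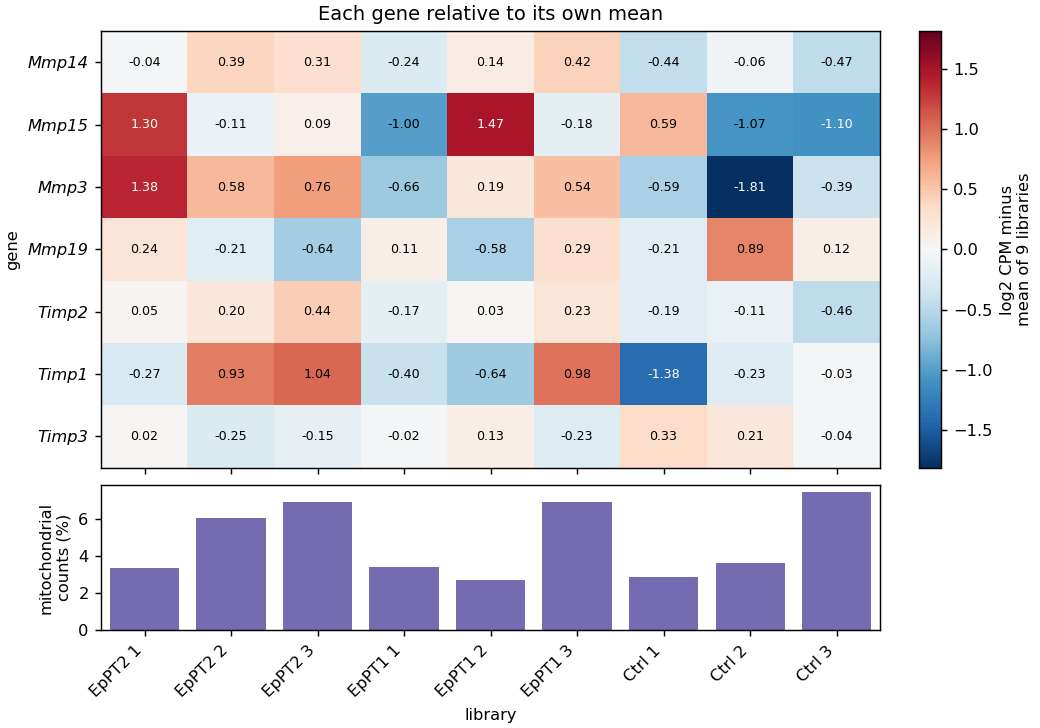
Log2 CPM of each tested gene minus its own mean over the 9 libraries (upper panel, colour and printed value) and the share of counts on mitochondrial genes (lower bars, %). Timp1 is high in EpPT2 2, EpPT2 3 and EpPT1 3, whereas Mmp15 is high in EpPT2 1, EpPT1 2 and Ctrl 1.

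In EpPT2 against Ctrl, edgeR called 0 of the 7 tested genes at an adjusted p of 0.05, and it called 0% of all 14471 genes. At an unadjusted p under 0.05, Mmp14 and Timp2 were higher in EpPT2, where 6.88% of all tested genes were higher and 5.31% lower. Mmp3 also had such a p, but it is not counted with them, because its low Ctrl counts left its place in the test to the exposed libraries. DESeq2 called 62 of all genes, and limma-voom called 0. DESeq2 called none of the 7 and gave Mmp3 no adjusted p. In DESeq2, Mmp14, Timp1 and Timp2 had an unadjusted p under 0.05, against 14.9% of all genes. In limma-voom, Mmp14 and Timp2 had such a p, against 12.1% of all genes. Mmp3 had such a p in both tools and is again not counted. Mmp14 and Timp2, and Mmp3 with the same reservation, were those whose groups did not overlap, all higher in EpPT2, against 12.3% of tested genes higher without overlap and 10.9% lower. The median log2 difference of the 14471 genes was −0.03. In EpPT1 against Ctrl, edgeR called 0 of 7 (0% of all genes), and edgeR, DESeq2 and limma-voom each had 0 of the 7 at an unadjusted p under 0.05, against 3.01% of all genes higher and 0.919% lower in edgeR, 5.09% in DESeq2 and 2.81% in limma-voom. No gene of the set separated EpPT1 from Ctrl, where 2.73% of tested genes lay higher and 2.53% lower without overlap. Both comparisons use the same 3 Ctrl libraries, so their values are not independent of each other.

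**Figure D4:**
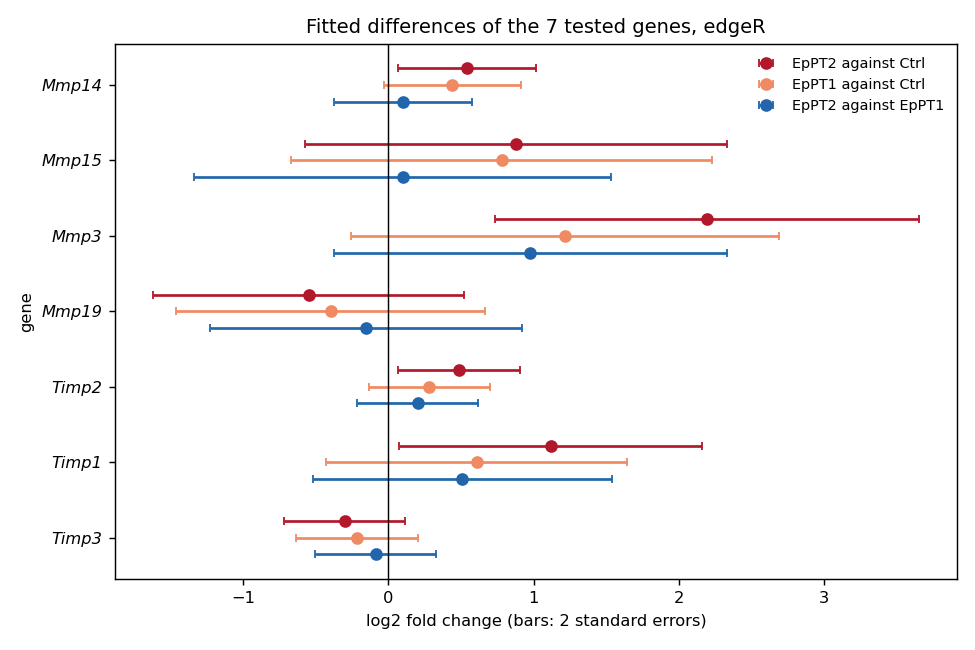
Fitted log2 fold changes of the 7 tested genes in edgeR for the 3 comparisons, with bars of 2 standard errors. The bars of Mmp3, Mmp14, Timp2 and Timp1 in EpPT2 against Ctrl lie above 0 and all others cross it.

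Between EpPT2 and EpPT1, edgeR called 0 of 7 (0% of all genes), and edgeR, DESeq2 and limma-voom had 0 of the 7 at an unadjusted p under 0.05, against 0.0691% of all genes higher and 0.145% lower in edgeR, 0.263% in DESeq2 and 0.152% in limma-voom. Mmp3 alone separated the groups, being higher in EpPT2, against 1.26% of all tested genes higher and 1.2% lower. As Mmp3 reached the test only through its exposed libraries and at low counts, this separation is a description and supports no difference. The fold of EpPT2 over EpPT1 was 1.97 for Mmp3 (2 SE interval 0.771 to 5.03). It was 1.07 for Mmp14 (2 SE interval 0.774 to 1.49), 1.15 for Timp2 (0.861 to 1.54), 1.42 for Timp1 (0.697 to 2.91) and 0.942 for Timp3 (0.705 to 1.26). These intervals leave room for differences of the size seen against Ctrl.

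Several other metalloproteinase genes were more abundant than the secreted members. Of the 17 further genes in the list, 5 were tested and 12 were too low. Per kilobase, Mmp24 averaged 17.5 CPM, Mmp28 10.3, Mmp10 4.83, Mmp11 4.22 and Mmp13 2.58. These means were all above those of Mmp15, Mmp3 and Mmp19 and all below that of Mmp14. The order did not hold in every library. In EpPT2 1, Mmp24 (31.2) exceeded Mmp14 (29.0), and Mmp15 (2.15) exceeded Mmp13 (1.14). Of the 5 further genes tested, 0 passed edgeR's test in any of the 3 comparisons. In EpPT2 against Ctrl, 4 of the 5 lay above 0, with a median log2 difference of 0.81, where 47.9% of all tested genes lay above 0. Mmp11, or stromelysin-3, which is activated inside the cell by furin, had 159, 344 and 312 counts in EpPT2, 92, 158 and 279 counts in EpPT1, and 64, 105 and 100 counts in Ctrl. Its EpPT2 libraries all lay above Ctrl, with a log2 difference of 1.62 (SE 0.51) and an edgeR adjusted p of 0.376. In that comparison, 12.3% of all tested genes lay higher without overlap. Mmp24, a membrane-type proteinase known best from the nervous system, had 95.4 ± 44.2 CPM in EpPT2, 96.0 ± 38.2 in EpPT1 and 54.4 ± 22.5 in Ctrl (SD, n = 3 each). Its 3 EpPT1 libraries lay above all 3 Ctrl libraries, where 2.73% of all tested genes lay higher without overlap. Mmp10, or stromelysin-2, had 12.3 ± 6.11 CPM in EpPT2, 7.12 ± 6.08 in EpPT1 and 5.56 ± 2.71 in Ctrl. Mmp28, or epilysin, had 40.9 ± 5.81 CPM in EpPT2, 38.6 ± 12.2 in EpPT1 and 40.2 ± 15.9 in Ctrl.

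**Figure D5:**
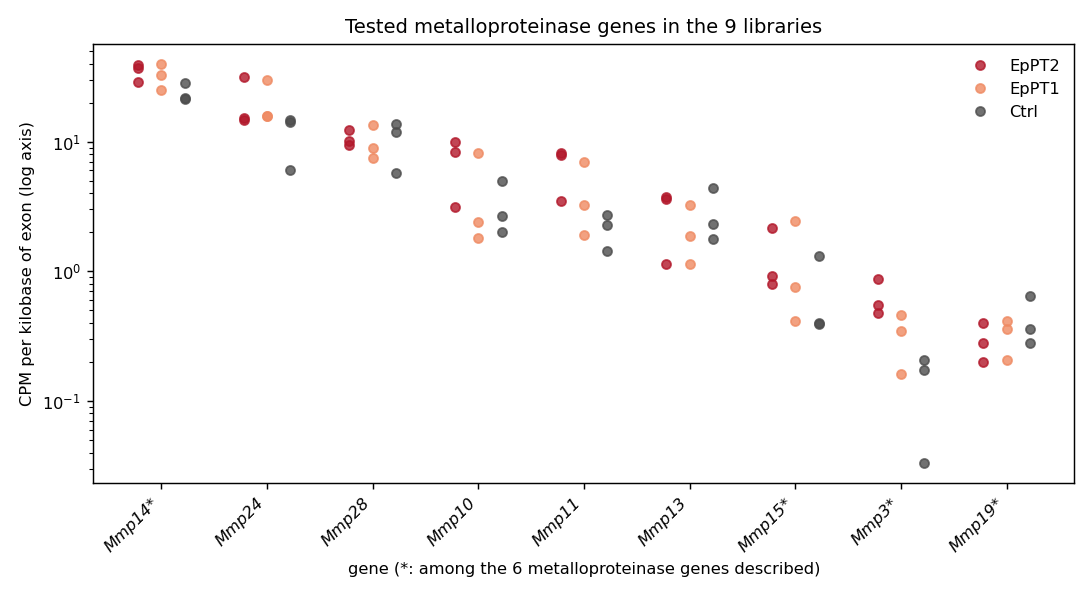
CPM per kilobase of exon (log axis) of the 9 metalloproteinase genes abundant enough to test, with 1 point for each library, by group. Mmp14 is the highest gene by its mean, and the means of Mmp24, Mmp28, Mmp10, Mmp11 and Mmp13 lie between those of Mmp14 and Mmp15, with overlapping points.

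Genes that activate, dock or clear metalloproteinases were also read, and 0 of them passed edgeR's test in any of the 3 comparisons. Of 11 genes of the proprotein convertases and the plasmin system, 7 were tested, and all 7 had a log2 difference above 0 in EpPT2 against Ctrl, with a median of 0.36, as did 5 in EpPT1 against Ctrl, with a median of 0.37. Of all tested genes, 47.9% lay above 0 in EpPT2 against Ctrl and 48.0% in EpPT1 against Ctrl. Some of the 7 lay near 0 in EpPT2 against Ctrl, such as Plat at 0.12 (SE 0.63) and Pcsk6 at 0.13 (SE 0.67). In that comparison 2 of the 7 lay higher without overlap, Furin at 0.76 (SE 0.26) and Pcsk7 at 0.36 (SE 0.22), against 12.3% of all tested genes. Pcsk7 also lay higher without overlap in EpPT1 against Ctrl, against 2.73% of all tested genes. The plasminogen activator gene Plat had 259 ± 141 CPM in EpPT2, 213 ± 123 in EpPT1 and 239 ± 175 in Ctrl (SD, n = 3 each). The urokinase receptor gene Plaur had 227 ± 56.6 CPM in EpPT2, 213 ± 76.2 in EpPT1 and 156 ± 62.6 in Ctrl. The convertase gene Pcsk6 had 87.5 ± 63.8 CPM in EpPT2, 96.8 ± 65.4 in EpPT1 and 79.9 ± 61.4 in Ctrl. Of the 4 genes of other inhibitors and clearance, Lrp1 alone was tested. This endocytic receptor, which removes proteinase and inhibitor complexes from the cell surface, had 578 ± 82.5 CPM in EpPT2, 500 ± 139 in EpPT1 and 381 ± 38.4 in Ctrl, with a log2 difference of EpPT2 from Ctrl of 0.60 (SE 0.25) and an edgeR adjusted p of 0.386. Its groups did not overlap between EpPT2 and Ctrl, where 12.3% of all tested genes lay higher without overlap and 10.9% lower. The inhibitors Reck and Timp4 had 1 count each in all 9 libraries together.

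Of the surface proteins that bind or induce metalloproteinases, 3 of 4 were tested, and 1 lay above 0 in EpPT2 against Ctrl (median −0.13). The inducer Bsg had 871 to 4105 CPM over the 9 libraries, Cd44, which docks Mmp9, had 544 to 1192 CPM, and the integrin subunit Itgav had 146 to 403 CPM. Of 13 ADAM and ADAMTS genes, which encode sheddases and matrix proteinases of a related family, 7 were tested, 3 of them above 0 in EpPT2 against Ctrl (median −0.11) and 4 in EpPT1 against Ctrl (median 0.02). The most abundant were Adam10, a sheddase, with 157 ± 32.2 CPM in EpPT2, 148 ± 17.6 in EpPT1 and 186 ± 25.9 in Ctrl, and Adam15, with 213 ± 57.0 CPM in EpPT2, 160 ± 81.9 in EpPT1 and 97.0 ± 20.7 in Ctrl (SD, n = 3 each). Adam15 lay higher in all 3 EpPT2 libraries than in Ctrl, with a log2 difference of 1.14 (SE 0.38) and an edgeR adjusted p of 0.376. Of all tested genes, 12.3% lay higher in EpPT2 than in Ctrl without overlap. None of the 7 passed edgeR's test in any of the 3 comparisons. Adam9 had 85.8 to 142 CPM over the 9 libraries, and Adam17, the sheddase blocked by Timp3, had 43.1 to 85.2 CPM.

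For each tested gene, the gene with the most similar log2 CPM over the 9 libraries was found among 9523 genes with a mean of at least 5 CPM. These were Jak3 for Mmp14 (Pearson's r = 0.986), Ptk2b for Mmp15 (0.977), Zyx for Mmp3 (0.946), Akr1c12 for Mmp19 (0.836), Rpn2 for Timp2 (0.991), Man2b2 for Timp1 (0.992) and Zfp266 for Timp3 (0.979). The values are descriptions chosen as the highest of many, and the libraries share the mitochondrial sets and GC trends described above.

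Metalloproteinases and inhibitors are also products of fibroblasts and blood cells, so markers of such cells were read. The luminal markers Krt8, Krt18, Krt19 and Epcam were tested, and the summed level of the 5 luminal markers was 1939 to 2060 CPM in EpPT2, 1921 to 2181 in EpPT1 and 1629 to 2572 in Ctrl, with Cdh1 at no more than 0.775 CPM. Of the 8 fibroblast markers, 4 were tested, and their sum was 761 to 2120 CPM in EpPT2, 743 to 2094 in EpPT1 and 1300 to 3291 in Ctrl. Almost all of it was Dcn, with a log2 difference of EpPT2 from Ctrl of −0.47 (SE 0.49). The other 3 tested fibroblast markers lay above 0 in that comparison. Col1a1 gave 1.28 (SE 0.66) with no overlap and an edgeR adjusted p of 0.438, where 12.3% of all tested genes lay higher without overlap. Col3a1 gave 0.75 (SE 0.75) and Pdgfra 0.20 (SE 0.48). Further, Col1a2 and Lum had 5 and 3 counts in all libraries together and Thy1 had 0. Of the 8 markers of macrophages and other blood cells, 5 were tested, with sums of 31.9 to 114 CPM in EpPT2, 30.1 to 123 in EpPT1 and 25.1 to 127 in Ctrl. Cd68 led these, Ptprc had 45 counts in all libraries together and Adgre1 had 0. The basal markers summed to 8.94 to 23.1 CPM in EpPT2, 7.32 to 23.5 in EpPT1 and 4.71 to 19.4 in Ctrl. The endothelial markers summed to at most 3.46 CPM, and the fat cell markers, led by Lpl, summed to 231 to 291 CPM in EpPT2, 248 to 409 in EpPT1 and 310 to 367 in Ctrl. These are bulk libraries, in which fewer cells of a type and less RNA per cell cannot be told apart, and the part of these markers in the values above was not tested.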

How the data were processed

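RNA-seq counts of 9 HC11 libraries were read from 1 table of raw counts per gene, deposited by the authors with a column for each library and matched to the labels by column name. The submitters' processing notes name Bowtie 0.12.2 and the build mm8. Start and end in the table equal those of GENCODE mouse release M21 on GRCm38 for 53499 of 54409 matched genes (98.3%), so coordinates are GRCm38. Besides the counts, the authors' table gives a gene length, which equals the merged exon length in 98.0% of them and was used for levels per kilobase. No source used here names the counter or its strand setting.

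In R 4.3.3, edgeR 4.0.16 was run with TMM scaling, filterByExpr, 1 fit of all 9 libraries (6 residual degrees of freedom) and the two-sided quasi-likelihood test, with Benjamini-Hochberg adjustment over 14471 genes and a threshold of 0.05. Standard errors were derived from the fold change and its F statistic, and intervals span 2 of them on either side. Both this test and the correction for GC were run on simulated data. Those data held no mitochondrial sets, and the simulation for GC had a smaller spread than these libraries. The runs therefore do not show how the methods perform on the present data. Alternatives used DESeq2 1.42.0 and limma 3.58.1, other filters and scaling, a replicate block, the mitochondrial share as a covariate, a spline of 5 degrees of freedom on gene GC content removed as an offset (13 tested genes had no GC value), and left-out libraries. No 2 libraries of a group agreed within sampling noise (lowest chi-square per gene 4.95). Members, gene lists and tests were chosen with earlier results of these data known. All 9 members are named, and other genes by the highest mean CPM within their list, or as the most similar to a member (predicted genes, pseudogenes and ribosomal protein genes left out). A gene that the rule would name is not reported here. Genes added for a role named beside a member, for a marker at or near 0, or for groups that did not overlap, were chosen after their values were seen. Promoter sequences are from RefSeq, and 6 of 9 genes matched.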

Additional observations from a re-analysis of the deposited data

How the results depend on the processing

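None of the 9 genes was called in any of the 3 comparisons under an alternative that gave it an adjusted p, with lowest adjusted p values of 0.075 (Timp1) and 0.107 (Mmp3), both in EpPT2 against Ctrl. DESeq2 gave Mmp3 no adjusted p in that comparison (unadjusted p 0.0087), and so no verdict. The number of all genes called, 0 in each comparison, became 268 in EpPT2 against Ctrl, 32 in EpPT1 against Ctrl and 2 in EpPT2 against EpPT1 without the filter on low counts, and 62 in EpPT2 against Ctrl and 1 in EpPT1 against Ctrl with DESeq2. Leaving out 1 library gave 0 to 2 calls in EpPT2 against Ctrl, the 2 without EpPT1 1, and 0 in the others. Of the refitted values of the tested members, 395 kept their direction and 18 reversed it, and none of the 18 was called. Some refits could hardly move a value, such as those without a library of the group not compared. The count is therefore no measure of stability. After the GC trend was removed, EpPT2 against Ctrl gave −0.051 for Mmp14 and −0.011 for Mmp15, and EpPT2 against EpPT1 gave −0.11 and −0.079. With the replicate block added to this, Mmp14 gave −0.038 and −0.10 in the same comparisons, and Mmp15 gave −0.22 in EpPT2 against EpPT1. With only the 5 libraries of the lower mitochondrial share, a setting in which the single EpPT2 library is assumed to vary like the others, Mmp19 gave 0.49 in EpPT2 against EpPT1. Leaving out 1 library at a time gave ranges on the log2 scale that cross 0 for Mmp15 (−0.26 to 1.61), Mmp19 (−0.63 to 0.02) and Timp1 (−0.079 to 0.89) in EpPT1 against Ctrl, and for Mmp14 (−0.047 to 0.27), Mmp15 (−0.50 to 1.14), Mmp19 (−0.44 to 0.057) and Timp3 (−0.18 to 0.0024) in EpPT2 against EpPT1. The cause of these shifts was not tested. Without Mmp14 and Timp2 the ratio of proteinases to inhibitors was 0.098, 0.023 and 0.024 in EpPT2, 0.033, 0.106 and 0.022 in EpPT1, and 0.089, 0.032 and 0.031 in Ctrl.

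The check of the replicate numbers cannot decide whether they pair the libraries. The deviations of same-numbered libraries from their group means correlated at −0.64 to 0.73. Of 9 pairs, 6 lay over 0.1, and 7 of 18 best matches had the same number. Libraries numbered 3 correlated at 0.63 to 0.73 in the 3 comparisons, and those numbered 2 at −0.64 to 0.064. All libraries numbered 3 and none numbered 1 are in the set with the higher mitochondrial share, so pairing and set cannot be told apart. With the replicate block, edgeR called 0 genes in each comparison, and Mmp3, Timp1, Mmp14 and Timp2 gave 2.26, 1.12, 0.54 and 0.47 in EpPT2 against Ctrl. In that comparison the block took the genes at an unadjusted edgeR p under 0.05 from 12.2% to 21.1%. The lowest adjusted p went from 0.376 to 0.068. For Timp1 the unadjusted edgeR p went from 0.057 to 0.0035 and the adjusted p from 0.414 to 0.106. For Timp2 the unadjusted edgeR p went from 0.043 to 0.052. Depth limits Mmp2, Mmp9, Mmp3 and Mmp19, which had at most 38 counts in any library.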
